A study of Mus musculus with 2 samples.

Results

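The genes of this account are the histone genes, the proteins that DNA is wound around in chromatin. They were taken as all genes on the array whose symbol in the platform's probe annotation starts with a histone prefix, such as H1f, H2ac, H2bc, H3c, H3f or H4c, or an older form of it; symbols of the major histocompatibility complex that begin with H2- were left out. The rule found 69 probes of 62 genes among 25697 probes, 51 genes replication-dependent and 11 replacement or germ cell types. Of these, 38 genes were detected, 32 of them replication-dependent and 6 replacement. Over the whole array 8378 of 16593 genes were detected.

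RNA came from the cervical loop (CL) of the mouse lower incisor, the end of the tooth where epithelial stem cells lie, at 10 weeks of age. The Med1 KO sample had the genotype MED1 fl/fl K14Cre, in which Cre driven by the keratin 14 promoter removes floxed Med1 from epithelium. The WT sample was MED1 fl/fl, from littermates with the floxed alleles but no Cre. Both were on the C57BL/6 background, both carried the floxed alleles, and both held tissue combined from 3 mice. Med1 encodes a subunit of Mediator, the coactivator complex through which transcription factors reach RNA polymerase II. K14Cre does not act in the mesenchyme, vessels, nerve and blood that the dissected tissue also holds, and the dissection note in the labels speaks of hair-generating tissue where the titles name the CL. The design text gives n = 3 for each genotype, while 1 column of values for each, called an array here, was analysed. No value therefore has an error between animals, no test between genotypes was possible, and each difference describes these 2 arrays.

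Most histone mRNA is made in S phase, when a cell copies its DNA and needs new protein to wrap it. These replication-dependent genes lie in clusters, lack introns, and give mRNAs that end in a stem loop and carry no poly(A) tail; the stem-loop binding protein SLBP governs their processing and use. Replacement histones, such as H3.3, H2A.Z and H2A.X, come from genes outside the clusters and are made throughout the cell cycle, mostly as polyadenylated mRNA. In the adult incisor, dividing cells are found at the CL, from where epithelium and mesenchyme renew the tooth as it wears. The histone genes of a family have nearly the same coding sequence, so a probe may read more than 1 of them; the probe sequences were not used here, and the ratio of a named gene is the ratio of its probe.

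The stretches upstream of the genes are shown here because the histone families differ in the promoter elements they carry. RefSeq promoters of the GRCm38.p6 build matched 56 of the 62 genes, and the 200 bases before each annotated start were searched on both strands for CCAAT, for TATAAA and for the octamer ATGCAAAT. Matches are in capitals. The windows belong to H2ac21, which had the highest ratio, and to H2bc11, whose window overlaps in part that of the divergent H2ac11. The others belong to H2bc14, with an octamer, to H4c9, an H4 gene detected on both arrays, and to the replacement gene H3f3b.
H2ac21, chr3:96219685-96219884, plus strand: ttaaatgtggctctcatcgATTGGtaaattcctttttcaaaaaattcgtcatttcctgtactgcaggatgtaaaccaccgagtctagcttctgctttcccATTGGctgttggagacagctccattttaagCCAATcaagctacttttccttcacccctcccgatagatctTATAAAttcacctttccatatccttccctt
H2bc11, chr13:22042998-22043197, plus strand: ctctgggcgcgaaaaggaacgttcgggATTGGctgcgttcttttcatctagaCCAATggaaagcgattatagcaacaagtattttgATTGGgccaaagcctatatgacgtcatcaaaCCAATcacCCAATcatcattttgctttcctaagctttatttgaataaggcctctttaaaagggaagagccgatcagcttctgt
H2bc14, chr13:21721844-21722043, plus strand: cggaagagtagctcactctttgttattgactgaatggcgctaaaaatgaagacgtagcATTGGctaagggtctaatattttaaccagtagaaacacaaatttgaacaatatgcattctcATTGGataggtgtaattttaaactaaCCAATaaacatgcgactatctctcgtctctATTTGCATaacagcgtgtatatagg
H4c9, chr13:22041363-22041562, minus strand: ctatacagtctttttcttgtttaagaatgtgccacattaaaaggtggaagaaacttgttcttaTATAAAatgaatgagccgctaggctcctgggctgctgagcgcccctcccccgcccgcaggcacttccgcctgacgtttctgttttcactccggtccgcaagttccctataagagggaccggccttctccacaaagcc
H3f3b, chr11:116024505-116024704, minus strand: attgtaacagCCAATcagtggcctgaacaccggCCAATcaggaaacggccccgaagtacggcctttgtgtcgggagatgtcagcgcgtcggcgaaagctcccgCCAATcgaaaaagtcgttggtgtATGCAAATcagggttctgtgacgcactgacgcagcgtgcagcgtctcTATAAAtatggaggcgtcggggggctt

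The H2ac21 window held 3 CCAAT matches, 181, 100 and 70 bases before the start, and a TATAAA 30 bases before it. In H2bc11 there were 5 CCAAT matches and neither of the other motifs. The octamer of H2bc14 began 25 bases before the start and reads as its reverse complement, ATTTGCAT, on the strand shown. The H4c9 window held no CCAAT, and its TATAAA lay 137 bases before the start. H3f3b carried 3 CCAAT matches, an octamer and a TATAAA.

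Over the family, CCAAT was present upstream of 14 of 14 H2A genes, 11 of 11 H2B genes, 5 of 5 H1 genes and 6 of 7 H3 genes of the replication-dependent kind, but of 2 of 9 H4 genes and of none of the 6 detected H4 genes. Among all 32851 promoters, 29.3% held it within the same length. TATAAA stood in 6 of 14 H2A, 5 of 11 H2B and 4 of 9 H4 windows, against 9.96% of all promoters. The octamer stood in 6 of 14 H2A and 6 of 11 H2B windows and in no H1, H3 or H4 window of the replication-dependent kind, against 1.38% of all promoters. The replacement and germ cell types held CCAAT in 8 of 10 windows, TATAAA in 3 and the octamer in 3. Among detected genes of the replication-dependent kind, CCAAT stood in 10 of 10 H2A, 8 of 8 H2B and 3 of 4 H3 windows, and the octamer in 2 of 10 H2A and 4 of 8 H2B windows. No 2 matches overlapped in any of these promoters. Windows of divergent H2A and H2B genes can overlap, so 1 match can count for both genes. A match says only that the letters are there.

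On the arrays, the H2A and H2B genes stood higher in KO than in WT, the H3 genes less so. The H4 genes, all on dim probes, and the replacement genes were centred near no difference. Across the 32 detected replication-dependent genes the median log2 ratio, KO minus WT, was 0.39, a fold of 1.31, and 28 of 32 ratios were above 0. Of all 8378 detected genes, 50.1% had a ratio above 0, and their median was 0.00. The study's methods used a size of 1.5-fold together with a p-value limit, and here the size alone was used. A difference of 1.5-fold or more was reached by 8 of the 32, all of them H2A or H2B genes. Of all detected genes, 1.78% were that much higher in KO. None of the 32 was that much lower. Among the 6 replacement genes the median was 0.05, with 3 ratios above 0 and 3 below. Most neutrophil markers were higher in KO, while other marker lists, given below, moved up or down. Of 11 detected neutrophil markers, 10 were above 0 and 7 were 1.5-fold or more higher in KO, with a median ratio of 0.99. Their summed normalized intensity was 6236 in KO and 3171 in WT. Cxcr2, Csf3r, Mmp8 and Stfa1 were not detected. The brightest detected neutrophil marker was S100a8, with a log2 value of 11.83 in KO and 10.83 in WT. The paper lists S100a8 and S100a9 among calcium-binding genes raised in KO incisors, tied there to epidermal differentiation. That list is of tissue of the enamel maturation stage, not of the CL, and of a younger age. The part of the neutrophil markers in the histone ratios was not tested.

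**Figure D1:**
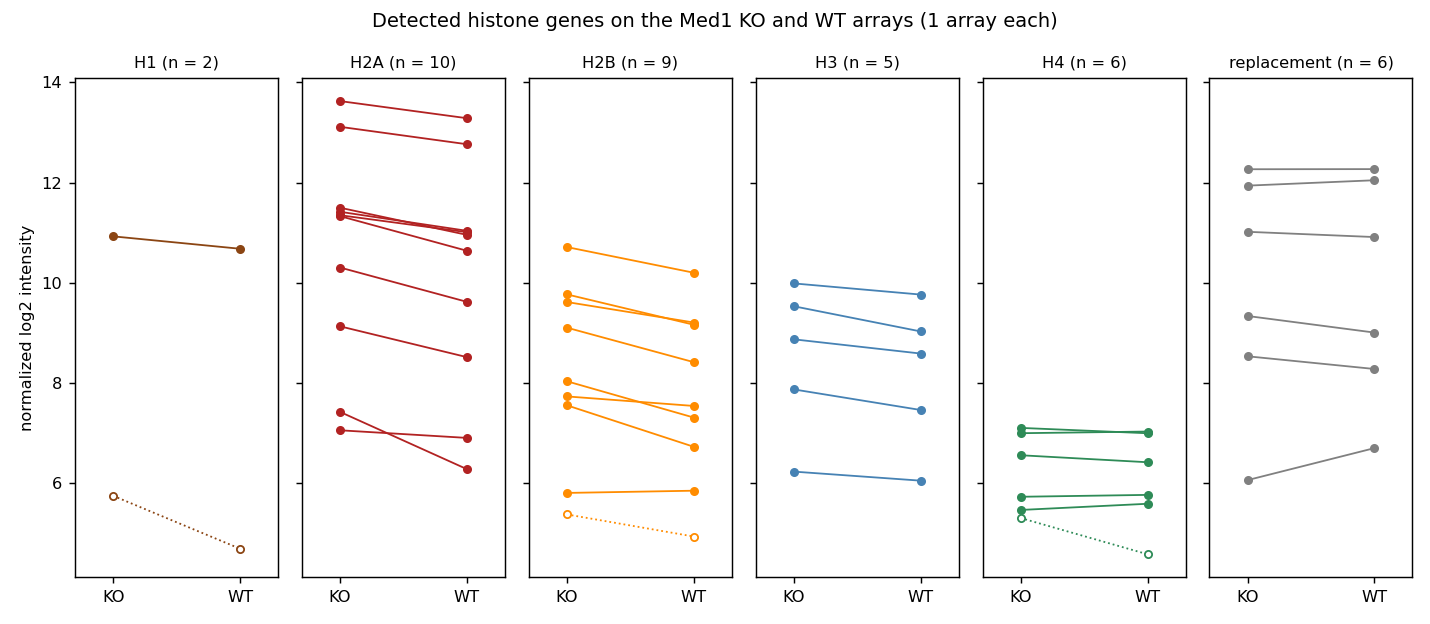
Normalized log2 intensity of each detected histone gene on the KO array (left) and the WT array (right), with a line for each gene, in panels for replication-dependent H1, H2A, H2B, H3 and H4 and for replacement histones. Open points and dotted lines mark genes detected on the KO array only; all 10 H2A lines descend toward WT, while the H4 lines are nearly level apart from the dotted one.

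H2A and H2B form the dimers that are most readily exchanged in the nucleosome. Of 14 replication-dependent H2A genes 10 were detected, each on both arrays, and all 10 had ratios above 0, between 0.15 and 1.14, with a median of 0.46. The widest was H2ac21 (older symbol Hist2h2ab), with a log2 value of 7.42 in KO and 6.28 in WT, a fold of 2.21; 13 of the 8378 genes, itself included, had a ratio this high or higher. H2ac10 (Hist1h2af) had a log2 value of 11.33 in KO and 10.64 in WT, a ratio of 0.69. H2ac22 (Hist1h2an) stood at 10.30 in KO and 9.62 in WT, a ratio of 0.68. The probes of H2ac10 and H2ac22 lay far above the lowest detected log2 values of 5.15 in KO and 5.26 in WT. H2ac11 (Hist1h2ag) read 9.13 in KO and 8.52 in WT, a 1.53-fold difference. H2ac12 (Hist1h2ah) read 11.50 in KO and 10.96 in WT, a ratio of 0.54 that stayed short of 1.5-fold.

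A group of H2A probes had nearly the same ratio at very different brightness. H2ac24 (Hist1h2ap), with 13.62 in KO and 13.28 in WT, H2ac20 (Hist2h2ac), with 13.11 in KO and 12.76 in WT, and H2ac7 (Hist1h2ad), with 11.35 in KO and 11.01 in WT, had ratios between 0.34 and 0.35. H2ac15 (Hist1h2ak) stood at 11.42 in KO and 11.04 in WT, a ratio of 0.38. The lowest of the family was H2ac18 (Hist2h2aa1), with 7.06 in KO and 6.91 in WT, a ratio of 0.15.

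Of 13 replication-dependent H2B genes 9 were detected, with a median ratio of 0.51, and 8 of the 9 were above 0. H2bc15 (Hist1h2bn) had the widest ratio, 0.83, with a log2 value of 7.56 in KO and 6.73 in WT. H2bc14 (Hist1h2bm) read 8.04 in KO and 7.31 in WT, a fold of 1.65. For H2bc4 (Hist1h2bc), whose second probe was detected on neither array, the values were 9.10 in KO and 8.42 in WT, a fold of 1.61. These 3 and H2bc11 (Hist1h2bj), with 9.77 in KO and 9.16 in WT, made up the 4 H2B genes at 1.5-fold or more.

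The other H2B genes lay closer to no difference. H2bc7 (Hist1h2bf) read 10.71 in KO and 10.20 in WT, a ratio of 0.51. H2bc9 (Hist1h2bh) read 9.62 in KO and 9.21 in WT, a ratio of 0.41. H2bc12 (Hist1h2bk) was at 0.19, with 7.73 in KO and 7.54 in WT. The exception in direction was H2bc18 (Hist2h2bb), which was dim, with 5.81 in KO and 5.85 in WT, a ratio of -0.04. H2bc6 (Hist1h2be) was detected on the KO array only, at 5.38 in KO and 4.94 in WT, which bounds its difference at 1.09-fold or more.

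**Figure D2:**
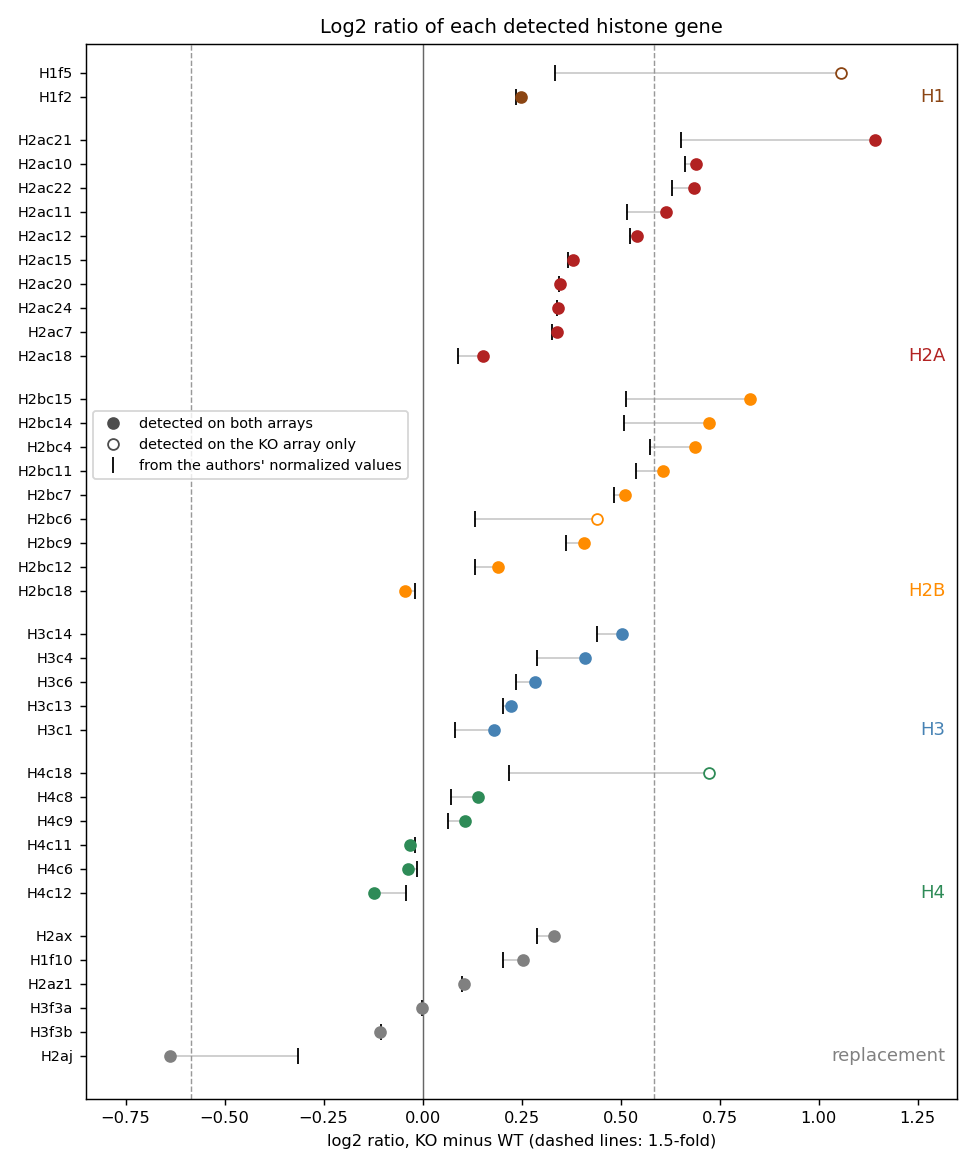
Log2 ratio, KO minus WT, of each of the 38 detected histone genes, grouped by family (filled, detected on both arrays; open, on the KO array only). Black ticks give the ratio from the authors' normalized values and dashed lines mark 1.5-fold; in both sets of values the H2A and H2B genes sit right of 0 except H2bc18, and H4 ratios cluster around 0 apart from H4c18.

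H3, which with H4 forms the inner tetramer of the nucleosome, was intermediate. All 5 detected replication-dependent H3 genes of 9 had ratios above 0, with a median of 0.28, and none reached 1.5-fold. H3c14 (Hist2h3c1) led them with 9.53 in KO and 9.03 in WT, a ratio of 0.50, and a dimmer probe of the same gene gave 0.39. The others were H3c4 (Hist1h3d) at 0.41, H3c6 (Hist1h3e) at 0.28, H3c13 (Hist2h3b) at 0.22 and H3c1 (Hist1h3a) at 0.18. The 5 therefore shared a direction at sizes smaller than those of most H2A and H2B genes.

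H4 genes all encode the same protein. Of 10 replication-dependent H4 genes 6 were detected, 3 with ratios above 0 and 3 below, and the median was 0.04. H4c8 (Hist1h4h) had a log2 value of 6.56 in KO and 6.42 in WT, a ratio of 0.14. H4c9 (Hist1h4i) read 7.10 in KO and 7.00 in WT, a ratio of 0.11. H4c11 (Hist1h4j) lay at -0.03, H4c6 (Hist1h4f) at -0.04 and H4c12 (Hist1h4k) at -0.12. H4c18 (Hist1h4n) was detected on the KO array only, at 5.31 in KO and 4.58 in WT; its measured ratio of 0.72 rests on a WT value below detection, and the bound is 1.03-fold. Without it the H4 median was -0.03. All H4 probes were dim, with no log2 value above 7.10, so the H4 ratios come from a range of intensity in which only part of the H2A and H2B probes lay. The H2A and H2B genes with a WT value in that range were mixed. H2ac21 was at 1.14, H2bc15 at 0.83, H2ac18 at 0.15 and H2bc18 at -0.04, and H2bc6 had a bound of 0.12. The part of probe brightness in the H4 ratios was not tested.

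H1, the linker histone that binds where DNA enters and leaves the nucleosome, had 2 detected genes of the replication-dependent kind. H1f2 (Hist1h1c) was bright, with 10.93 in KO and 10.68 in WT, a ratio of 0.25. H1f5 (Hist1h1b) was detected on the KO array only, at 5.75 in KO and 4.69 in WT, which bounds it at 1.40-fold or more. The 3 genes seen on the KO array only, H1f5, H2bc6 and H4c18, had no counterpart seen on the WT array only; over the whole platform 718 probes were seen in KO alone and 368 in WT alone. With these genes at their bounds the median of the 32 replication-dependent genes was 0.34, and over the 29 detected on both arrays it was 0.35.

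The ratios were set against the brightness of the probe, since dim probes vary more. Of 2437 detected genes with a mean log2 value of 9 or more, 0.616% were 1.5-fold or more higher in KO, and 95% of their ratios lay between -0.40 and 0.38. The 13 replication-dependent histone genes in this range had a median ratio of 0.41, and 3 of them reached 1.5-fold, H2ac10, H2ac22 and H2bc11. For all detected genes 95% of the ratios lay between -0.62 and 0.61. A second guide to measurement error is the difference between probes of the same gene: over 1791 genes with probes detected on both arrays, the ratios of their brightest probes differed by a median of 0.19 and, in 95% of genes, by 0.63 or less. Most single histone ratios are thus within the range that probes of the same gene can differ by, and among genes detected on both arrays H2ac21, H2bc15, H2bc14, H2ac10, H2bc4 and H2ac22, higher in KO, and H2aj, lower in KO, exceed it. Over the 283 genes whose second probe also had a mean log2 value of 9 or more, the limit for 95% was 0.46. Of the 13 bright replication-dependent genes, H2ac10, H2ac22, H2bc11, H2ac12, H2bc7 and H3c14 exceed that. Both limits are for a difference between 2 probe ratios, while the SD for 1 probe was 0.22 over the 1791 genes. The probes share the same 2 arrays, so neither limit holds the variation between animals.

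**Figure D3:**
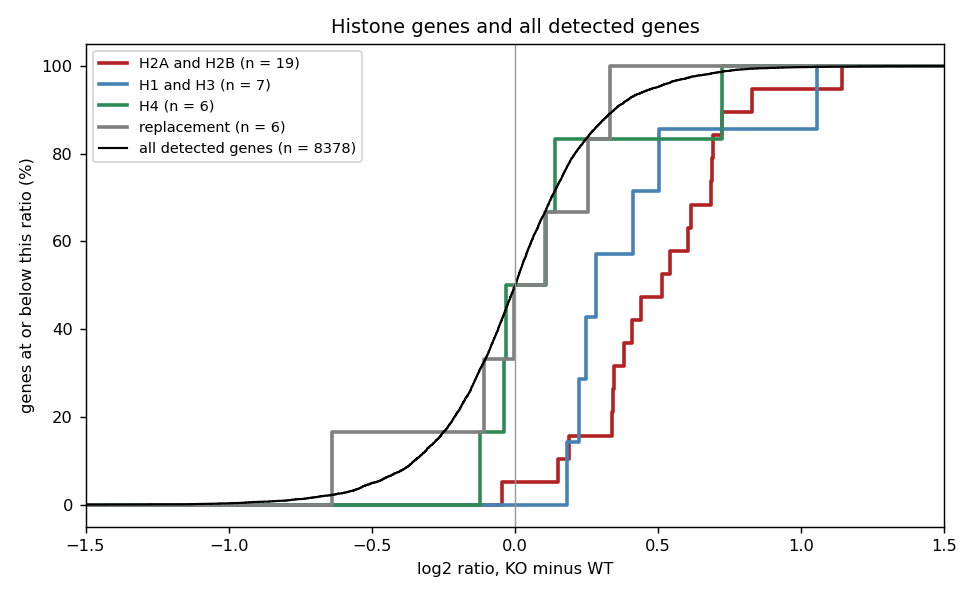
Share of genes (percent, vertical axis) at or below each log2 ratio, KO minus WT (horizontal axis), for replication-dependent H2A and H2B (19 genes), H1 and H3 (7 genes) and H4 (6 genes), replacement histones (6 genes) and all 8378 detected genes. The H2A and H2B curve lies right of the curve of all genes along nearly its whole length, while the H4 and replacement curves cross it.

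Histone genes lie in clusters, and the higher ratios were found for probes named for genes of both clusters with detected genes. Which copies a probe reads was not checked, so a probe named for 1 cluster may also read the other. In the Hist1 cluster on chromosome 13, 23 of 26 detected genes had ratios above 0, with a median of 0.41. In the Hist2 cluster on chromosome 3, 5 of 6 did, with a median of 0.28. The 3 genes of the Hist3 cluster on chromosome 11 were not detected. The H2A and H2B genes of Hist1 had medians of 0.54 and 0.56, while the 6 H4 genes, all of Hist1 too, had a median of 0.04.

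Many H2A and H2B genes stand head to head and share the stretch between their starts. In 6 pairs the starts lay under 1000 bases apart, and in 4 of these both genes were detected, with all 8 ratios above 0. H2ac11 and H2bc11, 249 bases apart, had almost the same ratio, 0.61 and 0.61. H2ac7 and H2bc7, 174 bases apart, had 0.34 and 0.51. H2ac12 and H2bc12, 178 bases apart, had 0.54 and 0.19, and H2ac15 and H2bc15, 164 bases apart, had 0.38 and 0.83. Within a pair the larger ratio was thus that of the H2A probe in some and of the H2B probe in others. Here too a probe may read copies outside its pair.

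The replacement histones did not share a direction. H3f3a and H3f3b, which encode the same H3.3 protein, were bright and nearly level. H3f3a had a log2 value of 12.27 in KO and 12.27 in WT, a ratio of 0.00; a dim probe of this gene gave -0.66, with 5.16 in KO and 5.83 in WT. H3f3b read 11.94 in KO and 12.05 in WT, a ratio of -0.11. H2az1, which encodes the H2A.Z found at promoters, read 11.02 in KO and 10.91 in WT, a ratio of 0.10.

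H2ax, whose protein is phosphorylated at DNA breaks and whose gene gives both stem-loop and polyadenylated mRNA, had the highest replacement ratio, 0.33, with 9.34 in KO and 9.01 in WT. H1f10 (H1fx), a linker histone made outside S phase, read 8.53 in KO and 8.28 in WT on its brighter probe, a ratio of 0.25, and the dimmer probe gave 0.53. H2aj (H2afj), a replication-independent H2A, was the only histone gene lower in KO by 1.5-fold or more, where 2.24% of all detected genes were: it had 6.06 in KO and 6.70 in WT, a ratio of -0.64. In the authors' normalized values its ratio was -0.31, short of 1.5-fold.

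The remaining 24 genes were not detected on either array. The replication-dependent ones were H1f1, H1f3, H1f4, H2ac4, H2ac6, H2ac8, H2aw, H2bc3, H2bc8, H2bu1-ps, H2bu2, H3c3, H3c7, H3c8, H3c10, H4c2, H4c3, H4c4 and H4c14. The replacement and germ cell types were H1f6, H1f7, H1f8, H2ac1 and H2bc1, whose proteins are known from testis or oocyte. Their probes did not pass the detection limit set from the negative controls, so no ratio is given.

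The direction of the H2A and H2B genes held under median scaling, the 1 scaling tried that could change the sign of a probe's ratio. Of 18 such genes detected on both arrays, 17 had ratios above 0 under all 9 settings tried, the exception being H2bc18. Settings that change only the detection filter cannot move the ratio of a probe. Leaving out background correction or changing the offset keeps the order of probes within an array. After quantile normalization such a setting can change the size of a ratio but not its sign, so its agreement in direction is no check. The authors' normalized values nearly repeat those without background correction. Of the settings computed here, only median scaling left out quantile normalization. The sizes did depend on the scaling. In the authors' normalized values, which have no background correction, H2ac21 had a ratio of 0.65, H2bc15 of 0.51 and H2bc14 of 0.51, and 3 histone genes reached 1.5-fold. Median scaling, which moved the median of all detected genes to -0.13, gave medians of 0.32 for H2A, 0.41 for H2B, 0.14 for H3, -0.05 for H4 and -0.10 for replacement genes, and there too 3 genes reached 1.5-fold.

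**Figure D4:**
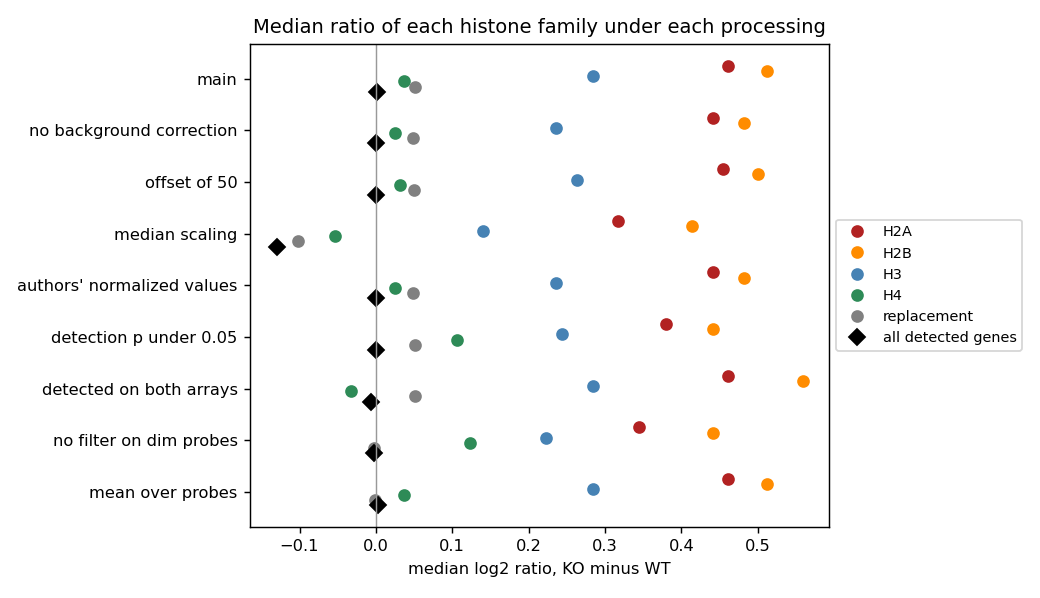
Median log2 ratio, KO minus WT (horizontal axis), of replication-dependent H2A, H2B, H3 and H4 genes, replacement histones and all detected genes under each of 9 ways of processing (rows). H2B and H2A stay right of H3, and H3 right of H4, replacement and all genes, in every row; with median scaling all points move left.

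Lists of genes that act on histones or work beside them had medians closer to 0. Of 12 detected genes for histone mRNA processing and histone gene transcription, 7 had ratios above 0, none reached 1.5-fold either way, and the median was 0.06. The widest was Cpsf2, a subunit of the 3′ end cleavage complex, at 0.45, followed by Srrt at 0.27, Mtpap at -0.21 and Upf1, which takes part in histone mRNA decay, at 0.15. Slbp was not detected on either array. Of 32 detected chaperones and exchange factors, which carry histones to and from DNA, 16 were above 0 and 16 below, with none at 1.5-fold and a median of 0.00. The widest measured ratios were those of Npm1 at -0.45, Tonsl at -0.39, Ttf2 at 0.38 and Atrx at -0.36. Tonsl and Atrx were detected on the WT array only, with bounds of -0.19 and -0.23.

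Among the chaperones that deposit new H3 and H4, Asf1b was at 0.32, Nasp at 0.10 and Chaf1a at -0.07, and Hira, which deposits H3.3, was at 0.02. Cenpa, the histone H3 of centromeres, had a ratio of -0.10 and Macroh2a1 of 0.19. Of 32 detected genes of S phase and DNA replication, 19 were above 0, with a median of 0.05. Rfc4, a clamp loader subunit detected on the KO array only, was the only one whose bound passed 1.5-fold, at 0.74 with a measured ratio of 0.89. Gins3, also detected on the KO array only, had a measured 0.62 and a bound of 0.19. Ccne2, a cyclin of S phase entry, was at -0.52 and the replication factor Cdc45 at 0.45, while the Pcna probe was not detected on either array. For the protein, the paper reports more PCNA staining in the KO CL at a younger age. Of 13 detected mitotic genes 12 were above 0, with a median of 0.14 and none at 1.5-fold; Kif11, a spindle motor, was at 0.54, Cdca8 at 0.34, Cdk1 at 0.22 and Cdca3 at 0.20.

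Med1 had a log2 value of 6.48 in KO and 7.28 in WT, a ratio of -0.80, on the 1 of its 4 probes that was detected. All 10 dental epithelium and ameloblast markers on the array were detected, but Sox2, Lgr5 and Gli1 of the stem cell list were not. Other marker lists moved too. Of 5 detected markers of dental epithelial stem cells 4 were below 0, with a median of -0.48. Fgf9 was at -0.74, Lrig1 at -0.62, Igfbp5 at -0.07 and Bmi1 at 0.02. The median is the value of Acta2, which also stands in the list for smooth muscle and pericytes. Dental epithelium and ameloblast markers had a median of -0.07, with Shh at -0.67 and Sp6 at 0.60. All 3 detected Schwann cell markers were below 0, with a median of -0.50. That median is the value of Mag, detected on the WT array only, whose bound is -0.25. Below 0 too were 6 of 7 smooth muscle and pericyte markers, with a median of -0.30. So were 5 of 7 markers of endothelium, with a median of -0.26. Skeletal muscle markers had a median of 0.23, with 5 of 7 above 0, and erythroid markers of -0.37, with 1 of 3 above 0. Mesenchyme and odontoblast markers, macrophage markers and B lymphoid markers had medians of 0.09, -0.03 and -0.12, and no T lymphoid marker was detected. The part of these cell types in the histone ratios was not tested. In such a tissue, fewer cells of a type and less RNA in each cell cannot be told apart.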

How the data were processed

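RNA of 1 Med1 KO and 1 WT sample was labelled with biotin and hybridized to Illumina MouseRef-8 v2 bead arrays. Per the labels, GenomeStudio was used, and the authors deposited linear intensity values, neither background-subtracted nor normalized, with a detection p-value for each of 25697 probes. Within a column the detection p-value never rose with intensity, which ties each to its own array. The authors also deposited values they had normalized, used here as an alternative. The way the RNA was primed for labelling was not given in the sources used here; priming on poly(A) tails reaches replication-dependent histone mRNAs less well than random priming.

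Intensities were background-corrected with normexp from the detection p-values, with an offset of 16, quantile-normalized and put on the log2 scale with neqc of limma 3.58.1 in R 4.3.3. Each ratio is the KO minus the WT log2 value. A probe was detected at a detection p-value under 0.01 on at least 1 array, which held for 11742 probes. Of 25697 probes 23978 had 1 gene symbol. The brightest detected probe stood for a gene. A gene detected on 1 array only has a bound, taken against the higher of its own value and the lowest detected value on the other array, and bounds were used for counts at 1.5-fold. Medians use measured ratios. With 1 sample in each group no test was run, and precision is limited by having 2 arrays. The spread between probes of the same gene served as a guide to error.

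Genes were named by rule: every detected histone gene, the 4 widest ratios of each list of related genes, some fixed genes of those lists, and Med1. Npat and Mki67 were not found in the annotation used. The histone genes, lists and promoter motifs were chosen with earlier results of these data known. Promoters came from RefSeq. The steps were tested on simulated data.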

Additional observations from a re-analysis of the deposited data

How the results depend on the processing

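No paired analysis was possible because each genotype has 1 array. The median log2 ratio of replication-dependent histone genes, 0.39, stayed above 0 under all 8 alternatives, at 0.33 without background correction, 0.34 with an offset of 50, 0.24 with median scaling, 0.33 in the authors' normalized values, 0.35 with genes detected on both arrays and 0.28 with no filter on dim probes. Of these scalings, only median scaling could change the sign of a single probe's ratio. The replacement median of 0.05 was -0.10 with median scaling, which shifts all genes down. Histone genes 1.5-fold or more higher in KO numbered 8, against 3 without background correction, 3 with median scaling, 3 in the authors' normalized values and 1 at a 2-fold limit. The 1 gene lower in KO, H2aj, gave a count of 0 without background correction, with an offset of 50, in the authors' normalized values and at 2-fold. All detected genes numbered 149 higher and 188 lower, against 22 and 36 without background correction, 53 and 71 with an offset of 50, 73 and 359 with median scaling, 22 and 36 in the authors' normalized values, and 12 and 21 at 2-fold. Values without background correction are compressed for dim probes by construction. Of single genes, 6 of 38 moved past the probe spread when background was left uncorrected, and 2 of 38 changed sign with median scaling. Averaging the probes of H3f3a gave -0.33. The family medians and the count among bright probes were added after seeing the data. Signal over background limits what could be compared: 24 of the 62 histone genes were not detected. Over the whole array 8378 of 16593 genes were detected. No replicate could be left out.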
